A study of Homo sapiens with 12 samples.

Results

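Replication-dependent histone genes supply the histone proteins that package newly copied DNA. They were taken as the protein-coding genes whose symbol starts with HIST1H, HIST2H, HIST3H or HIST4H, which gave 71 of the 58051 genes in the count table. By histone type they were 6 genes for the linker histone H1 and, for the core histones, 17 for H2A, 18 for H2B, 15 for H3 and 15 for H4. By prefix, 55 were HIST1 genes, 12 were HIST2, 3 were HIST3 and 1 was HIST4.

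These genes are transcribed in S phase under the coactivator NPAT, and their mRNAs form the main class of animal mRNAs without a poly(A) tail. The form without a tail ends instead in a stem-loop that is bound by SLBP. This end is made by a single cut directed by the U7 particle (LSM10, LSM11) with ZNF473, CASP8AP2 and the nuclease CPSF3. NELF, the complex that holds RNA polymerase II near promoters, also contacts the cap-binding complex and has been linked to this cut. NELFA is a subunit of NELF, and YAP is the transcriptional co-activator at the end of the Hippo pathway.

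The cells were MDA-MB-231, a human triple-negative breast cancer line, transfected with siRNA pools in 4 groups of 3 libraries: siControl (a non-targeting pool), siNELFA, siYAP and siNELFA+siYAP. All groups therefore received siRNA, at 50 to 100 nM, and share 1 cell line. Per the labels, RNA was taken at 48 h and 72 h, without saying which library came from which time, and the study's methods give 72 h and 3 independent biological replicates. The extract protocol and the study's methods describe rRNA-depleted total RNA, which keeps mRNAs without a tail, while the series' design text speaks of mRNA libraries. Library names carry N1, N2 or N3 for replicates 1, 2 and 3 of siControl, siNELFA and siYAP, whereas all 3 siNELFA+siYAP libraries carry N1 with an index.

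Total counts ranged from 9608145 to 18803104 per library. NELFA was at 25.3 to 27.9 CPM (counts scaled to library size with TMM factors) in siControl and 7.10 to 9.94 in siNELFA, and YAP1 was at 246 to 302 CPM in siControl and 37.6 to 46.1 in siYAP. In siNELFA+siYAP, NELFA was at 6.34 to 8.18 CPM and YAP1 at 40.1 to 44.1. Of the cell line's markers, VIM, CD44, EGFR, KRT18 and AXL were at 76.4 TPM or more in every library (TPM is a level per gene length), and PGR was at 0.0687 TPM or less. ERBB2 was present, at 15.7 to 29.4 TPM. CDH1, which this line is known to lack, was listed at 7.92, 11.97 and 7.06 TPM in the N1 libraries of siControl, siNELFA and siYAP, and at 0 to 1.58 in the other 9 libraries. Of 5 markers of blood, vessel and liver cells, CD3E and ALB were listed at 0 throughout, and PTPRC, VWF and PECAM1 stayed at 2.37 TPM or less.

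The stem-loop is shown first because it sets these mRNAs apart from all others. All 71 genes held it within 150 bases after the stop codon, against 2 of the 19899 other protein-coding genes, H2AX (listed in the count table as H2AFX) and BTBD10. It began 22 to 67 bases past the stop codon, with a median of 35. The sequences below are from GRCh38, 5′ to 3′ on the gene's strand, located through GENCODE gene models. Capitals mark the 16 bases of the stem-loop, and 5 flanking bases are given on each side.
HIST1H4C: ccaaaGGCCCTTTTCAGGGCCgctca
HIST1H1C: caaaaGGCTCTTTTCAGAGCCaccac
HIST1H2BK: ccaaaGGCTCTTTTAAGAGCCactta
HIST2H2AC: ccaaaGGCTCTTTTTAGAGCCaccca
HIST1H2AG: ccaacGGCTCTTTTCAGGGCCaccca
HIST1H2AK: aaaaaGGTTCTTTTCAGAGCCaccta
HIST1H1B: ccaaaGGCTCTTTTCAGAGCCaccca
HIST1H4E: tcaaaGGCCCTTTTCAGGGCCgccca

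These sites lie at chr6:26104312-26104337 (HIST1H4C, plus strand), chr6:26055739-26055764 (HIST1H1C, minus), chr6:27146361-27146386 (HIST1H2BK, minus), chr1:149887386-149887411 (HIST2H2AC, plus), chr6:27133510-27133535 (HIST1H2AG, plus), chr6:27837880-27837905 (HIST1H2AK, minus), chr6:27866792-27866817 (HIST1H1B, minus) and chr6:26204996-26205021 (HIST1H4E, plus). All are in the 3′ untranslated part of the gene. The stem separated H4 from the other types. All 15 H4 genes opened with GGCCC and closed with GGGCC, as in HIST1H4C. Of the 56 genes of the other types, 54 opened with GGCTC and closed with GAGCC, and the exceptions were HIST1H2AG and HIST1H2AK. The letters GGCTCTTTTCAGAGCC, shown for HIST1H1C, were the most common form, in 41 genes of all 4 non-H4 types. HIST1H1B and HIST1H4E are shown because they carried an ordinary stem-loop and almost no counts.

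The promoters also differed by type. RefSeq windows of 300 bases (250 before and 50 after the start, GRCh38.p14) matched 66 of the 71 genes. The octamer ATTTGCAT, searched on both strands and known as the binding site of OCT1 in H2B promoters, was in 14 of 18 H2B windows and 11 of 16 H2A windows, in 1 of 13 H3 windows, and in none of the 6 H1 or 13 H4 windows. It was in 1.80% of all 27305 windows. Neighbouring H2A and H2B genes often face away from each other and share a window, so these counts are not independent. CCAAT on either strand was in every H1, H2A, H2B and H3 window but in 3 of 13 H4 windows, against 35.7% of all. TATAAA on the gene's strand was in 39 of 66 windows, against 7.71% of all. No pair of these 3 motifs can share more than 2 letters, and each was counted apart.

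Expression was uneven along the clusters. Averaged over the 12 libraries, 24 of the 71 genes had fewer than 3 counts per library, a limit set after the values were seen, and 13 of these had no count at all. All but 2 of them, HIST1H2AA and HIST1H1A, lay in 3 blocks. From chr6:26188710 to chr6:26273412, an interval of 84.7 kb on GRCh38, 15 consecutive histone genes from HIST1H4D to HIST1H2BI had 46 counts in all over the 12 libraries, and 9 had none. The genes on either side, HIST1H2BE and HIST1H4H, averaged 163 and 702 counts per library. The 21 genes of any kind listed inside the interval included 13 with no count, and the highest total was 25 counts, for HIST1H2BF.

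A shorter block of 4 genes, HIST1H2AL, HIST1H1B, HIST1H3I and HIST1H4L at chr6:27865317-27873534, had 11 counts in all, while HIST1H2BN and HIST1H3J beside it averaged 803 and 1002. On chromosome 1, HIST3H3, HIST3H2A and HIST3H2BB, between chr1:228424845 and chr1:228463104, had 0 counts in every library, and so did all 5 genes listed in that interval. In a library, 3 counts would be 0.155 to 0.324 CPM, which is the level that a count of 0 still allows. HIST1H2AA, HIST1H2BA, HIST1H1A and HIST1H1T, which include the testis histones, averaged 0.167 to 6.33 counts. The share of windows with TATAAA was 9 of 23 for genes with fewer than 3 counts and 30 of 43 for the others, and for the octamer it was 9 of 23 and 17 of 43. Whether sequence, gene copy number or read filtering set these blocks was not tested.

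**Figure D1:**
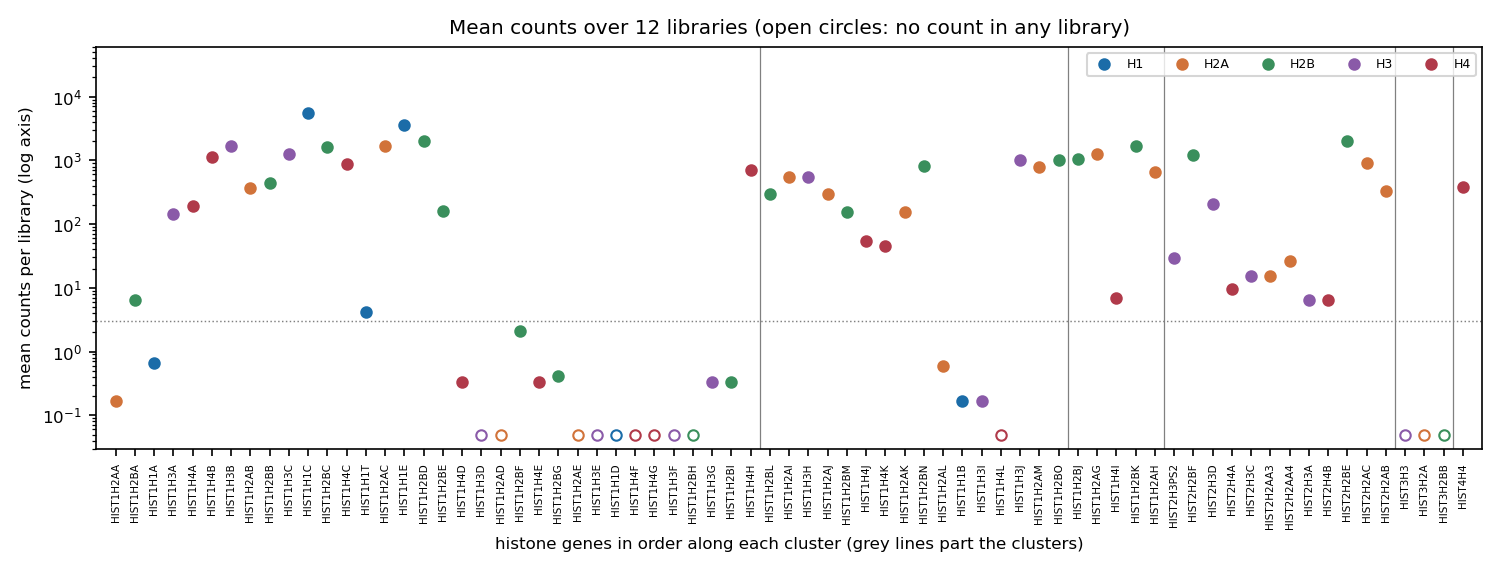
Mean counts per library over the 12 libraries (log axis) for the 71 histone genes, placed in order along each cluster and coloured by type. Open circles at the foot mark the 13 genes with no count, and the dotted line marks 3 counts. The run of 15 genes from HIST1H4D to HIST1H2BI sits under the line between HIST1H2BE (163 counts) and HIST1H4H (702 counts).

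Among the 47 genes with at least 3 counts per library, the mean TPM ranged from 0.279 for HIST1H4I to 719 for HIST1H1C, with a median of 96.7. In siControl, H2B genes made up 27.5% ± 2.59 (SD, n = 3) of the summed TPM of all members, H4 23.5% ± 1.83, H2A 20.0% ± 2.75, H1 18.1% ± 4.90 and H3 11.02% ± 2.90. The order was not the same in N1, where H1 made up 23.7% of the summed TPM and came second to H2B (30.4%), ahead of H4 (21.4%) and H2A (16.8%). In N2 and N3, H1 made up 15.6% and 14.9% and H4 24.4% and 24.7%. H1 came from few genes. HIST1H1C and HIST1H1E, the linker histones H1.2 and H1.4, averaged 719 and 448 TPM, and the next H1 gene by level, HIST1H1T, averaged 0.576.

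Near-identical copies were measured poorly by the counts. HIST1H4J and HIST1H4K, HIST2H4A and HIST2H4B, HIST2H3A and HIST2H3C, and HIST2H2AA3 and HIST2H2AA4 each shared all 100-base windows of their coding sequence with a partner. They averaged 6.33 to 53.7 counts per library, and yet the authors' TPM, which is not a rescaling of the counts, was 49.7 to 493. TPM per CPM was 182 in the median of these 8 genes and 2.93 in the 37 genes that shared up to 50% of such windows. Count-based values of these 8 genes are therefore uncertain.

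The N1 libraries stood apart in all 3 groups that have one. Summed over all members, siControl was at 1415, 3666 and 3450 CPM in N1, N2 and N3. The siNELFA libraries were at 1206, 2796 and 2124 CPM and the siYAP libraries at 1388, 3603 and 2731. N1 was thus the lowest library in each group, at 39.8%, 49.1% and 43.8% of the mean of N2 and N3. In siControl, siNELFA and siYAP, N1 also had the fewest total counts of its group (9608145, 13984518 and 10727090). Its TMM factor was the lowest of each group as well (0.963, 0.913 and 0.971). The part of sequencing depth in the N1 difference was not tested. In bulk RNA, fewer cells in S phase and less histone mRNA per cell cannot be told apart.

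**Figure D2:**
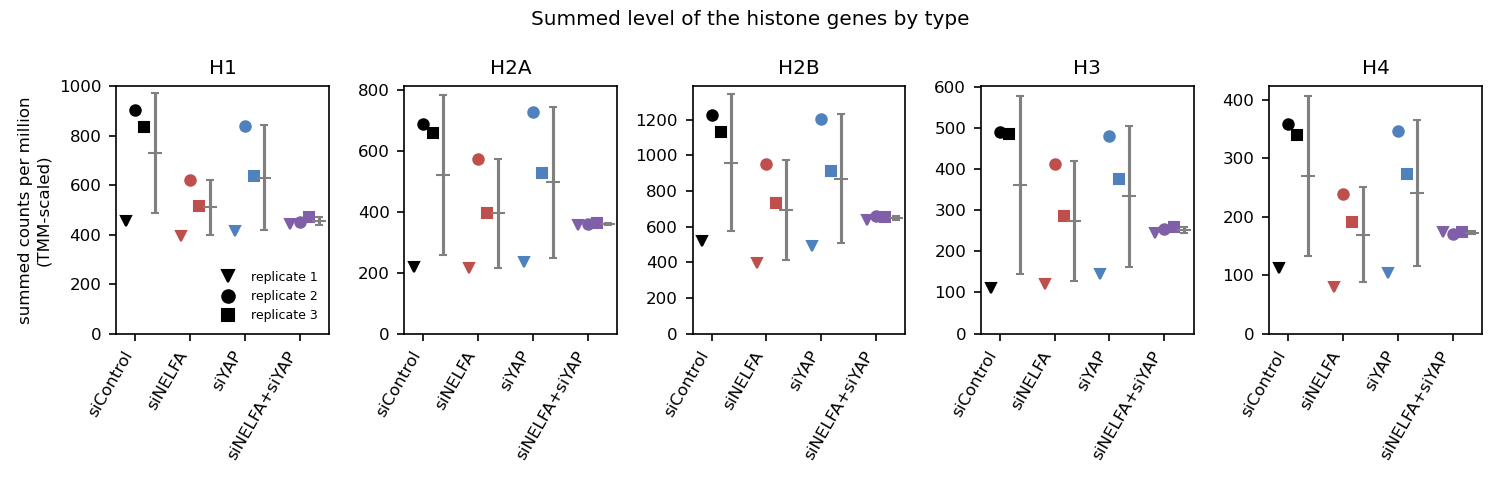
Summed CPM of the genes of each histone type in the 12 libraries. Symbols give the replicate (triangle 1, circle 2, square 3), and the grey mark and bar beside each group are its mean and SD (n = 3). In siControl, siNELFA and siYAP the triangle is the lowest of its group for every type, and the siNELFA+siYAP libraries lie close together.

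Over the 9 libraries of siControl, siNELFA and siYAP, with group as a term, 43 of the 71 genes had enough counts for edgeR's quasi-likelihood test of N1 against N2 and N3. All 43 had a negative log2 fold change, and 40 were called lower at an adjusted p under 0.05, where 22.4% of all 19022 genes tested were called lower. Over all genes 4259 were called lower and 4237 higher. With library totals in place of TMM factors the split was 5262 and 3482 and the median of all genes -0.13, with the members' median at -1.64 and 40 still called. In the TMM fit the members' median log2 fold change was -1.53, against -0.03 over all genes. N1 was below both N2 and N3 in each of the 3 groups for 38 of the 43, a pattern seen in 25.4% of all genes.

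The largest falls were in HIST1H2AB (log2 fold change -2.21, SE 0.17, adjusted p = 1.9e-07), HIST1H2BM (-2.19, SE 0.27), HIST1H2AI (-2.12, SE 0.20), HIST1H4H (-2.12, SE 0.13), HIST2H2AA3 (-1.995, SE 0.59, a gene of uncertain counts) and HIST1H2AJ (-1.96, SE 0.20). HIST1H2AB was at 8.87 CPM in siControl N1 and at 36.7 and 36.9 in N2 and N3. Its siNELFA libraries were at 5.79, 35.0 and 23.3 CPM in the same order, and its siYAP libraries at 6.91, 36.3 and 29.3. No N1 library of HIST1H2AB overlapped any N2 or N3 library. The 3 genes not called were HIST1H2BE (-0.23), HIST2H4A (-0.20) and HIST1H4I (-1.05), the last 2 with 9.50 and 7.00 counts per library.

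By type, the median log2 fold change of N1 was -1.76 for H2A (12 of 12 called), -1.73 for H3 (8 of 8), -1.43 for H4 (7 of 9), -1.35 for H2B (11 of 12) and -0.79 for H1 (2 of 2). H1 had the smallest change among the types: HIST1H1C had -0.68 (SE 0.11) and HIST1H1E -0.90 (SE 0.13). Among genes with an annotated span of up to 1000 bases the median was -1.64 over 29 genes. Among the 14 with a longer span it was -1.09, and HIST1H2BE, HIST2H2BE and HIST1H2BD were at -0.23, -0.65 and -0.81. By position, the medians were -1.41 for the HIST1 genes between 25.7 and 26.3 Mb, -1.74 at 27.1 Mb, -1.77 between 27.8 and 27.9 Mb, and -1.17 for HIST2. HIST4H4, the lone HIST4 gene, had -1.51 (SE 0.20, adjusted p = 2.8e-05). These differences between types, spans and positions were not tested.

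**Figure D3:**
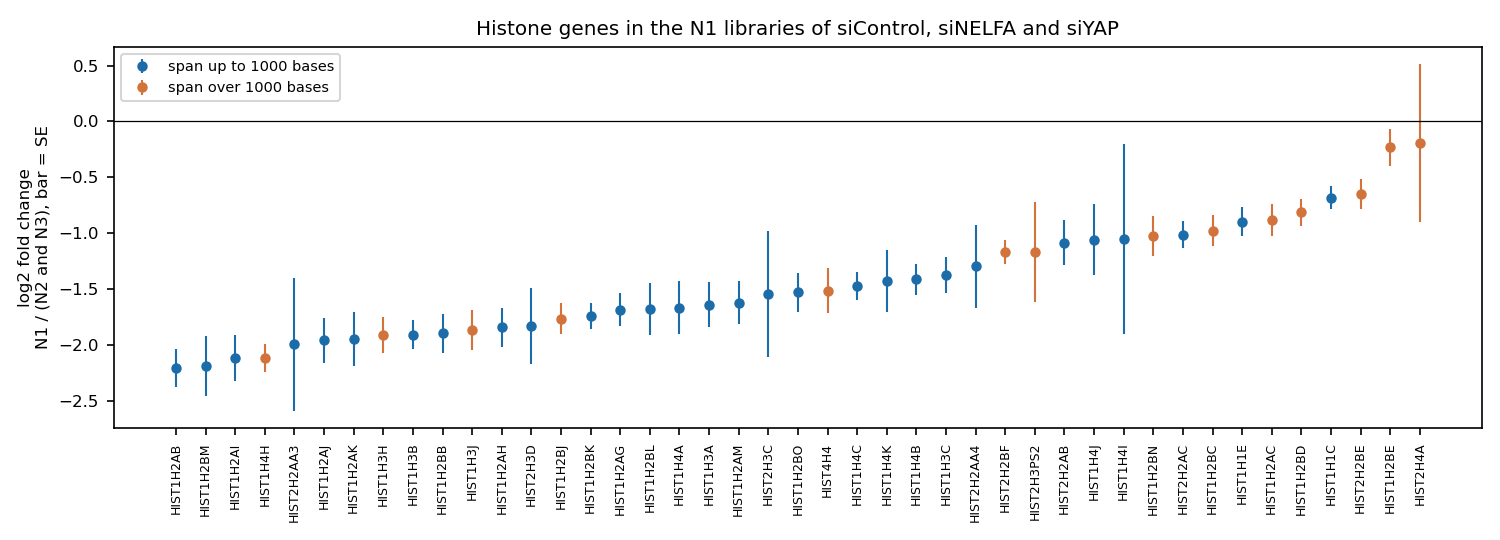
Log2 fold change of the N1 libraries against N2 and N3 (edgeR over 9 libraries, bars are SE) for the 43 tested histone genes, coloured by annotated span. All 43 points are below 0, from -2.21 for HIST1H2AB to -0.20 for HIST2H4A.

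Genes of S phase moved with the histones. In N1, all 26 genes of a list of replication genes were called lower. Their median log2 fold change was -1.45, and the largest falls were in RRM2 (-2.37), a subunit of ribonucleotide reductase, GINS2 (-1.96) and FEN1 (-1.91). H2AFX, the variant gene that also carries the stem-loop, fell by 1.36 on the log2 scale (SE 0.19, adjusted p = 5.5e-05). H1F0, the linker histone gene of resting and differentiated cells, rose by 1.17 (SE 0.10, adjusted p = 3.5e-07). H3F3B, which encodes the replication-independent H3.3, fell by 0.45 (adjusted p = 0.0019), and H3F3A had -0.30 (adjusted p = 0.061). Of the 5 genes listed as low or absent in this line, 3 were tested, and CDH1 and EPCAM were called higher in N1 (6.47 and 1.26). PECAM1, from the list of other cell types, was also called higher (1.34). The part of each of these in the fall of the histone genes was not tested.

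Of 33 tested genes for histone transcription and mRNA processing, 17 were called lower and 3 higher in N1. Over all 19022 genes tested, 4259 were called lower and 4237 higher. The log2 fold changes of the 33 ranged from -2.18 to 0.84, and 7 of the 8 genes of the cleavage machinery were among those called lower. CCNE2, the cyclin E that activates NPAT through its kinase, fell by 2.18 (SE 0.18), and the nuclease gene CPSF3 fell by 0.97 (SE 0.11). LSM10 (-0.73), ZNF473 (-0.66), CASP8AP2 (-0.47) and SLBP (-0.31, SE 0.11, adjusted p = 0.032) also fell. NPAT (-0.10, adjusted p = 0.46) and LSM11 (0.34, adjusted p = 0.10) did not pass the test.

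The comparison of siNELFA with siControl asks how the loss of a NELF subunit moved these genes. Fitted by group alone, edgeR called 0 of 43 tested members, where 0.00564% of all 17727 genes were called lower, and 0 members had an unadjusted p under 0.05. DESeq2 also called 0. The spread in that fit included the N1 shift. The members' median log2 fold change was -0.43, against 0.00 over all genes, and 39 of 43 were negative. Same-numbered libraries of siControl, siNELFA and siYAP deviated together from their group means, so the fit was repeated with the library number as a blocking term. It called 16 members lower and none higher, where 2.45% of all genes were called lower. The median was -0.42, against 0.01 over all genes, and DESeq2 with the block called 17 of 55 lower, against 1.61% of its genes.

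The member with the largest fall was HIST1H4C, at 38.0, 104 and 94.3 CPM in siControl N1, N2 and N3 and at 18.2, 56.1 and 46.5 CPM in siNELFA. Each siNELFA library was below its same-numbered control, and siControl N1 was below siNELFA N2 and N3. The log2 fold change with the block was -0.99 (SE 0.12, adjusted p = 0.00084). HIST2H2AC was at 40.7, 91.4 and 89.6 CPM in siControl and 25.6, 54.5 and 44.1 in siNELFA, with a log2 fold change of -0.82 (SE 0.12, adjusted p = 0.0032). HIST1H1C, the most abundant member, went from 297, 545 and 504 CPM to 234, 350.5 and 309.7, again lower in each pair (-0.56, SE 0.10, adjusted p = 0.0062).

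HIST1H3A was at 3.89, 17.3 and 15.2 CPM in siControl and 3.13, 7.72 and 6.64 in siNELFA (-0.97, SE 0.22, adjusted p = 0.023). HIST1H4A (-0.91, SE 0.21), HIST2H2AB (-0.67, SE 0.17) and HIST1H2BJ (-0.63, SE 0.13) completed the 6 largest falls among those called. The other 10 called were HIST1H2BB, HIST1H2BC, HIST1H3B, HIST2H2BE, HIST1H4B, HIST1H4H, HIST1H2BN, HIST1H2BD, HIST1H2AG and HIST1H1C.

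The called genes came from every type: 6 of 12 H2B, 4 of 9 H4, 3 of 12 H2A, 2 of 8 H3 and 1 of 2 H1. The block medians were -0.53 for H4, -0.50 for H2B, -0.46 for H1, -0.42 for H2A and -0.18 for H3. Among the 3 genes of highest mean CPM in each type, HIST1H2AC (-0.10, SE 0.15), HIST1H3C (-0.21, SE 0.15), HIST1H3J (-0.26, SE 0.17) and HIST1H1E (-0.36, SE 0.12, adjusted p = 0.10) were not called. HIST1H2BK was at 37.1, 149 and 154 CPM in siControl and 40.2, 127 and 132 in siNELFA (-0.12, SE 0.11, adjusted p = 0.59). Every positive value belonged to a gene under 10 CPM or of uncertain counts, except HIST2H3D (0.02, SE 0.36) at 12.8 CPM. By position, 10 of the 15 tested genes between 25.7 and 26.3 Mb were called, 2 of 5 at 27.1 Mb, 1 of 12 between 27.8 and 27.9 Mb and 3 of 10 in HIST2. HIST4H4 had -0.59 (SE 0.22, adjusted p = 0.14).

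**Figure D4:**
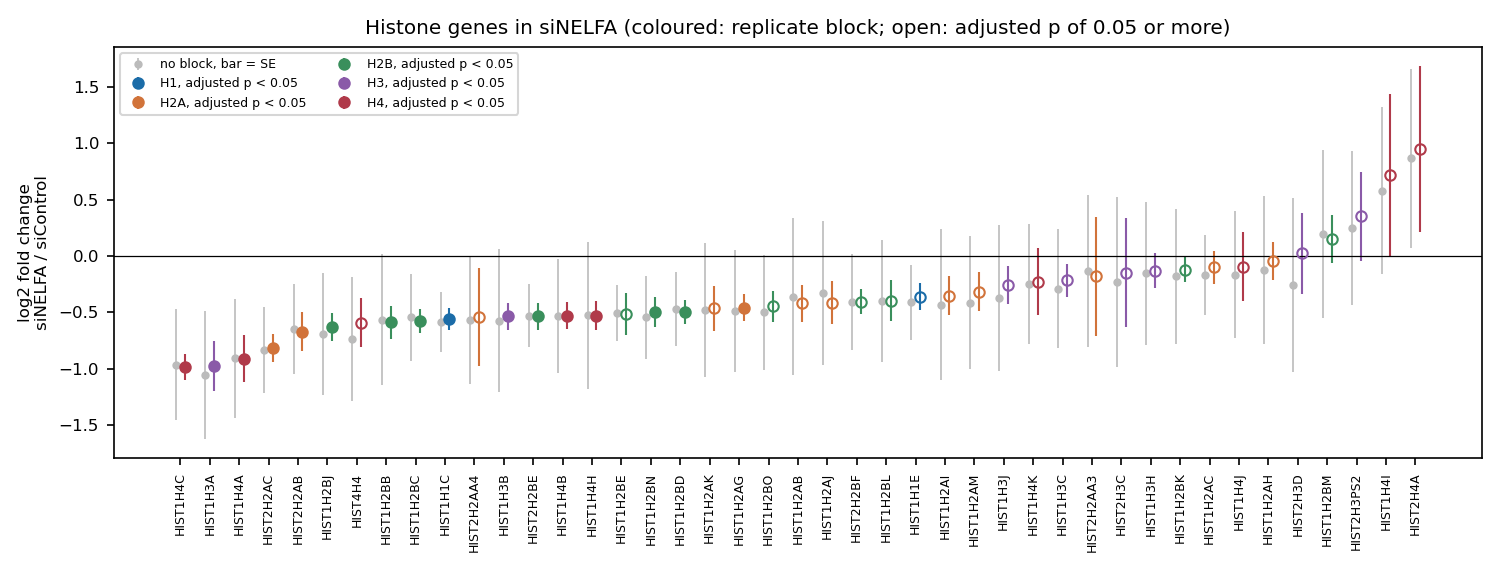
Log2 fold change of siNELFA against siControl for the 43 tested histone genes, without the block (grey) and with library number as a blocking term (coloured by type), with SE bars. Filled coloured points are the 16 genes with an adjusted p under 0.05, from HIST1H4C at -0.99 to HIST1H2AG at -0.46.

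The size of the fall differed between pairs. Over the 43 members the median log2 ratio of siNELFA to the same-numbered siControl was -0.16 in replicate 1, -0.33 in replicate 2 and -0.68 in replicate 3. The counts of negative members were 26, 36 and 39, where 49.3%, 49.8% and 51.2% of all 17727 genes were negative. In all 3 pairs, 23 members were lower, a pattern of 22.1% of all genes. In the N2 and N3 libraries alone with the block, 29 of 46 tested members were called lower, where 7.69% of genes were, and HIST4H4 (-0.92, SE 0.13) was among them. Without the block, edgeR called 0 of 46 in the same libraries. An unadjusted p under 0.05 was then found for 26 members, all lower, and over all 18077 genes for 1292 lower and 1284 higher. In the blocked fit, leaving out siControl N3 or siNELFA N3 left 3 of 44 members called, where 1.18% and 1.26% of all genes were called lower. Leaving out siControl N2 or siNELFA N2 left 8 of 44, against 1.55% and 1.57%. Leaving out siControl N1 or siNELFA N1 gave 29 of 46, against 7.48% and 7.42%. In each of these fits the library left alone in its block adds nothing to the fold change, which comes from the complete pairs. The fits without an N1 library therefore repeat the fit on N2 and N3 and are not a separate check. Blocked fits on N2 and N3 alone, here and below, and those with a library left out rest on 2 complete pairs. Each gene then gives little spread of its own, and the SEs and calls borrow spread from other genes.

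Summed by type in CPM, H4 in siNELFA was at 62.7% of the siControl mean, H1 at 69.8%, H2B at 72.4%, H3 at 75.4% and H2A at 75.8%. In each case the SDs of the groups overlapped, as with 270 ± 138 CPM for H4 in siControl and 169 ± 81.9 in siNELFA (SD, n = 3). In N2 and N3 alone, the H4 sum was at 61.4% of control and the sum over all members at 69.1%. The N1 pair differed: the siNELFA sum was at 107.9% of control for H3 and at 98.6% for H2A, and at 86.7% for H1, 76.5% for H2B, 70.8% for H4 and 85.2% over all members. The order of the types depended on the measure. In siControl, H4 made up 9.17% of the summed CPM but 23.5% of the summed TPM. The mean summed TPM went from 1586 to 935 for H1, 2562 to 1599 for H2B and 2309 to 1470 for H4. It went from 1145 to 766 for H3 and 1997 to 1449 for H2A. On TPM, 73.8% of all genes were also lower in siNELFA.

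With the block, 7 of 26 S phase genes were called lower in siNELFA, with a median of -0.34, and GINS2 (-1.20, SE 0.20) and CHAF1B (-0.62, SE 0.15) were the largest. Of the 33 genes for histone transcription and processing only ERI1, the exonuclease that trims histone mRNA ends, was called (-0.59, SE 0.12, adjusted p = 0.017). SLBP (0.03), NPAT (-0.23), CASP8AP2 (-0.27), LSM10 (0.28), LSM11 (-0.48) and ZNF473 (0.22) were not. Among the replication-independent variants, H3F3A was at -0.47 (adjusted p = 0.053), H3F3B at 0.33 (adjusted p = 0.072), H2AFX at -0.15 and H1F0 at 0.12, and these did not pass the test. In N2 and N3 alone with the block, 14 of the 26 S phase genes were called lower and 1, RRM2, higher (0.25, SE 0.08). H2AFX (-0.49, SE 0.09) and H3F3A (-0.38, SE 0.10) were lower there and H3F3B higher (0.25, SE 0.07). The part of the S phase genes in the fall of the histone genes was not tested.

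In siYAP, edgeR called 0 of 41 tested members, where 0.00578% of 17296 genes were called lower, and 0 had an unadjusted p under 0.05. DESeq2 also called 0. The median log2 fold change was -0.13, against 0.00 over all genes, and ranged from -0.64 to 0.07. With the block, 0 were called (0.0173% of all genes), with a median of -0.09. An unadjusted p under 0.05 was then found for 2 members, both lower, and over all 17296 genes for 692 lower and 883 higher. In N2 and N3 alone with the block, HIST1H2BK (-0.30, SE 0.07, adjusted p = 0.028) and HIST1H1E (-0.27, adjusted p = 0.037) were called lower, 2 of 43 members tested, where 0.855% of all genes were called lower. Without the block, edgeR called 0 of 43 in the same libraries. The pairs were again unequal, with medians of -0.01, -0.01 and -0.34 in replicates 1, 2 and 3. All 3 pairs were lower for 9 of 41 members, where 18.4% of all genes had that pattern. HIST1H4C was at 28.2, 93.3 and 70.3 CPM in siYAP (-0.34 with the block, adjusted p = 0.54). The sums by type in CPM were at 86.3% of siControl for H1, 89.3% for H4, 90.8% for H2B, 92.2% for H3 and 95.2% for H2A. With the block, the S phase genes had a median log2 fold change of -0.16 and the genes for histone transcription and processing one of -0.02.

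In siNELFA+siYAP the 3 libraries lay close together, at 1858, 1898 and 1925 CPM summed over all members, between siControl N1 and siControl N2 and N3. The direction therefore turned on the control library. Against siControl N1, 37 of 43 tested members were higher, with a median log2 ratio of 0.76, and against N2 and N3 the medians were -0.93 and -0.91, with 42 and 41 of 43 lower. The siNELFA+siYAP libraries all lay between siControl N1 and both other controls for 31 of 43 members, where 8.82% of genes did. They were all below siControl N2 and N3 for 38 members (25.8% of genes) and all above siControl N1 for 36 (44.3% of genes).

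**Figure D5:**
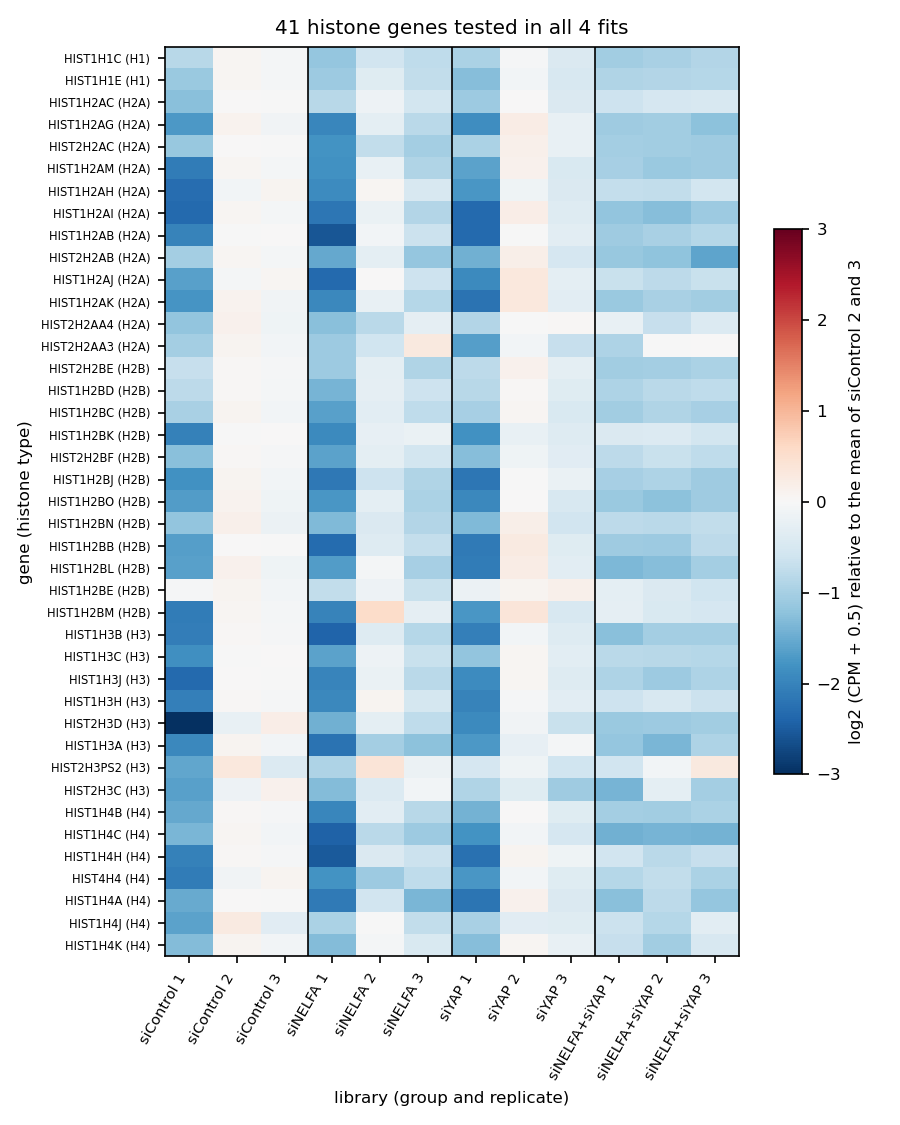
Log2 of CPM + 0.5 in each library relative to the mean of siControl replicates 2 and 3, for the 41 histone genes tested in all 4 fits, ordered by type and then by level. Blue is lower and red is higher. The replicate 1 columns of the first 3 groups are the darkest, and the siNELFA+siYAP columns are alike and of intermediate depth.

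Against all 3 controls, edgeR called 0 of 43 members in siNELFA+siYAP, where 0.308% of 17533 genes were called lower. An unadjusted p under 0.05 was found for 8 members, all lower, and over all genes for 1791 lower and 1450 higher. DESeq2 called 4 of 55 members lower, where 1.75% of its 32116 genes were called lower. In edgeR's fit the median log2 fold change was -0.60, against -0.03 over all genes. Without siControl N1, 35 of 44 members were called lower, where 12.9% of genes were, with a median of -0.93. HIST1H4C had the largest fall there too, from 104 and 94.3 CPM in siControl N2 and N3 to 35.95, 37.7 and 36.9 (-1.43, SE 0.08, adjusted p = 2.7e-08), but siControl N1 was at 38.0. HIST2H2AB was at 16.7, 35.2 and 32.9 CPM in siControl and at 15.3, 14.4 and 11.1, below all 3 controls (-1.08, SE 0.29, adjusted p = 0.13 with all controls). HIST2H2BE, at 115, 189.6 and 183 CPM in siControl, was at 90.2, 91.7 and 96.3, also below all controls (-0.82, SE 0.19, adjusted p = 0.097).

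HIST1H2BK, by contrast, was at 112, 113 and 103 CPM against 37.1 in siControl N1 and 149 and 154 in N2 and N3 (-0.06, SE 0.46). Against N2 and N3 alone, 25 of 26 S phase genes were called lower, with a median of -0.65, and H2AFX had -0.93 (SE 0.08). Of the 33 genes for histone transcription and processing, 6 were called lower and 3 higher there. Over all 18587 genes tested, 2402 were called lower and 2129 higher. ERI1 was at -1.07 (SE 0.15), and SLBP (-0.22, adjusted p = 0.14) and NPAT (-0.14, adjusted p = 0.17) were not called. Whether siControl N1 or siControl N2 and N3 is the matching control of the siNELFA+siYAP libraries cannot be told apart from the labels, and all 3 comparisons share the same siControl libraries. The labels also do not say whether the 3 siNELFA+siYAP libraries, all named N1, share a culture. If they do, the SEs, p-values and calls of this comparison do not measure the spread between cultures.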

How the data were processed

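Per the labels and the study's methods, the authors mapped stranded paired reads by STAR, with GRCh38 as the genome and Ensembl 87 as the annotation, and obtained gene-level counts from featureCounts. The counts were used as deposited, as whole numbers. Among nonzero counts up to 10, 83.5% were even. Options of the counting step are not given in the sources used here. The TPM values are the authors' estimates for each library and served for levels and as an alternative. The deposited FPKM table was left aside.

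Counts were tested by edgeR 4.0.16 (quasi-likelihood, TMM factors, filterByExpr with a minimum count of 10, total of 15 and proportion of 70%) in R 4.3.3, with Benjamini-Hochberg adjustment over all genes tested and calls at an adjusted p under 0.05. Each knockdown was fitted with siControl on 6 libraries by group, and N1 against N2 and N3 on 9 libraries. SE is the size of the log2 fold change divided by the square root of F. Sums by type are descriptions without a test. Ratios of single libraries used CPM plus 0.5. The scripts were tested on simulated data.

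Of the 71 genes, 66 were located in GENCODE by Ensembl ID and 5 by a RefSeq synonym. The members and lists were chosen with earlier results of these data known. Named were the 3 genes per type with the highest mean CPM, genes past the adjusted threshold (the 6 largest falls where over 12), HIST3 and HIST4 genes, and set genes of the other lists. HIST1H2BK, HIST1H2AK, HIST2H3D, HIST1H2BE, the near-identical copies and the genes in and beside the blocks without counts were chosen after their values were seen.

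Deviations from the group mean correlated by 0.638 to 0.885 over 12971 genes averaging at least 50 counts for same-numbered libraries of siControl, siNELFA and siYAP, and by -0.0532 to 0.0326 with siNELFA+siYAP. In the first 3 groups, N2 and N3 libraries of different groups also correlated, by 0.425 to 0.498, and N1 with N2 or N3 by -0.799 to -0.585. The numbers, from the labels, therefore paired the first 3 groups, and part of this pairing is the split of N1 from N2 and N3. The floors cover counting error only, while the SEs also include the spread between libraries.

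Alternatives were DESeq2 1.42.0, RLE factors or library totals, other filters, a fit restricted to protein-coding genes, a joint fit of the 12 libraries, the block, limma 3.58.1 on log2 TPM with pseudocounts of 1 and 0.1, and leaving out libraries.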

Additional observations from a re-analysis of the deposited data

How the results depend on the processing

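The N1 result gave 38 to 41 members called under its 17 alternatives, against 40. For siNELFA, 17 fits called 0 members, among them DESeq2, RLE factors, library totals, both TPM fits, N2 and N3 alone without the block, and each library left out without the block. The replicate block called 16, DESeq2 with the block 17, N2 and N3 alone with the block 29, and the block with a library left out 3 to 29. For siYAP, 23 alternatives called 0, N2 and N3 alone with the block called 2, and the block with a library left out called 0 to 2. For siNELFA+siYAP, 13 alternatives called 0, including the replicate block, whose numbers do not pair these libraries. An unadjusted p under 0.05 gave 8 of 43 members, where it gave 1791 lower and 1450 higher of all 17533 genes. DESeq2 gave 4, DESeq2 with the block 2, no filter on low counts 1, and siControl N2 and N3 only 35. Leaving out single libraries thus gave 0 to 35. Fits with N2 and N3 combined with the block, the block with libraries left out, and DESeq2 with the block were chosen after seeing the data. The log2 ratio of the summed level to siControl was -0.48 in siNELFA (range -0.80 to -0.21 over 12 alternatives), -0.14 in siYAP (-0.47 to 0.16) and -0.59 in siNELFA+siYAP (-0.91 to -0.36). No alternative moved these sums by more than 1 SD between replicates, a spread that includes the N1 shift. Within pairs, the siNELFA sum was lower in all 3 (-0.23, -0.39 and -0.70). On the TPM scale (pseudocount 1) the median of all genes moved to -0.19 in siNELFA, with 73.8% of genes lower against 50.0% on counts, and the members' median was -0.58. In siNELFA+siYAP these were -0.13, 63.7% against 52.6%, and -0.43, and in siYAP -0.07, 60.7% against 50.2%, and -0.14. The cause was not tested. The 24 genes with under 3 counts per library did not pass the filter on low counts.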
